A study of Mus musculus with 8 samples.

Results

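The REG genes encode small secreted C-type lectins, and the mouse members Reg1, Reg2, Reg3a, Reg3b, Reg3d, Reg3g and Reg4 were taken by gene symbol from read counts of pancreatic islet RNA. All 7 were found among the 55414 gene rows of every library. The 8 libraries came from islets, the endocrine clusters of the pancreas, of C57BL/6 mice at 5 weeks of age. The 4 libraries called TG here came from mice labelled Ins2 cre(+/-) ATF4 TG(+/-), which carried an ATF4 transgene together with a Cre recombinase allele named for Ins2, an insulin gene of beta cells. The 4 libraries called WT came from mice labelled Ins2 cre(-/-) ATF4 TG(+/-), which carried the same transgene without Cre. Both groups therefore held the ATF4 transgene in the heterozygous state, and the labels do not describe its promoter. The series concerns ATF4, the transcription factor of the integrated stress response, in islets under endoplasmic reticulum stress.

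REG proteins are made in bulk by the acinar cells of the exocrine pancreas, which secrete digestive enzymes, and several of them are switched on in pancreatitis and in epithelia exposed to microbes. Reg1 encodes the pancreatic stone protein, Reg3b encodes the pancreatitis-associated protein, and Reg3g encodes an antimicrobial lectin best known from the gut. IL-6 and IL-22 signal through JAK kinases to the transcription factor STAT3, a route known to raise Reg3 genes in pancreas and intestine. Islet cells can also transcribe REG genes after injury, but islets are isolated from exocrine tissue, and acinar RNA can come along with them.

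The libraries held 16521087 to 22499999 counts assigned to genes. Levels are given as CPM, read counts relative to the library size after scaling by TMM. The labels do not tie the 4 samples of a group to separate animals, so each p-value reflects the spread between samples that may be technical replicates. Atf4 itself lay at 234 to 278 CPM in the TG-labelled libraries, against 326 to 378 CPM in the WT-labelled libraries. This is a difference of −0.43 on the log2 scale (SE 0.085, adjusted p = 0.00226, edgeR quasi-likelihood). The sources used here do not say whether transgene transcripts were counted under Atf4. TG and WT therefore name the labels throughout, and "higher" and "lower" describe the libraries labelled TG. In bulk islet RNA, fewer cells of a type and less RNA per cell cannot be told apart.

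The REG genes lie together on mouse chromosome 6, except Reg4 on chromosome 3. The order along chromosome 6 in the RefSeq annotation is Reg3b, Reg3d, Reg3a, Reg2 and Reg1, then a pseudogene, then Reg3g. The promoters of the members that the results below turn on, taken from RefSeq GRCm38.p6 from 250 bases before to 50 bases after each gene's start, are shown first. Capitals mark TTCNNNGAA, the palindrome that STAT factors bind, searched on both strands. Reg1 and Reg3a hold none and are shown beside Reg3b and Reg3d, which hold 1 each. The windows are chr6:78425733-78426032 on the plus strand for Reg1, chr6:78380459-78380758 on the plus strand for Reg3a, chr6:78370635-78370934 on the plus strand for Reg3b and chr6:78378816-78379115 on the minus strand for Reg3d.
Reg1: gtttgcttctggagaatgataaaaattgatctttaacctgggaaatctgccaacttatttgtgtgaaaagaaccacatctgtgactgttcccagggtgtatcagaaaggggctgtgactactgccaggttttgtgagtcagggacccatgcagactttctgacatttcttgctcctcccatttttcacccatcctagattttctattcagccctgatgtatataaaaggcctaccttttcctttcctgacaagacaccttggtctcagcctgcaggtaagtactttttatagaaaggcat
Reg3a: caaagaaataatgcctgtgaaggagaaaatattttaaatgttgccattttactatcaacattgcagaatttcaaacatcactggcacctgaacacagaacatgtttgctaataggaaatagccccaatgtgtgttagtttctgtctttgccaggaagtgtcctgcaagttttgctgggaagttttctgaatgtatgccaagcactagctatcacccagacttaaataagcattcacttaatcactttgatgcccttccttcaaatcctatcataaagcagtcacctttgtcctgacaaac
Reg3b: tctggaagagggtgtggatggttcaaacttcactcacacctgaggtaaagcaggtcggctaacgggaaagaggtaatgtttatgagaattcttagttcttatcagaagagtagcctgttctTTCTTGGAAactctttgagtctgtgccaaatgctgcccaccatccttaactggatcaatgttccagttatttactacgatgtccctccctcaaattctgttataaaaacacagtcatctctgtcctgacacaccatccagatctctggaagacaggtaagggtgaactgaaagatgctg
Reg3d: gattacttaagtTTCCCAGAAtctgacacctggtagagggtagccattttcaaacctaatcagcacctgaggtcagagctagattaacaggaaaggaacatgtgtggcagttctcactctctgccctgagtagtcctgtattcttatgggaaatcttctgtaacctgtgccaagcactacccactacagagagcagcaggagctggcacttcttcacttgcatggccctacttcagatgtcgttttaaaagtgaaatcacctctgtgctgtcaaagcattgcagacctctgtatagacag
The capitals begin 129 bases before the start of Reg3b and 238 bases before that of Reg3d. TTCNNNGAA stood in the promoters of 2 of the 7 members and in 8.29% of 32817 promoters of the same length. TGATGNAA, the core of the element that ATF4 binds with its partners, stood in none of the 7 and in 3.97% of all promoters. CACCTG, an E-box of the kind bound by the acinar factor complex around Ptf1a, stood in 5 of the 7 and in 20.2% of all promoters. The members without CACCTG were Reg1 and Reg3g. All motif hits are letter matches, with no binding measured, and the last 2 motifs were chosen after the promoters had been seen. The members are related genes and most lie side by side. Their matches are therefore not independent of each other when set beside the share of all promoters.

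Transcripts of the members differ enough for reads to be told apart. Reg1 and Reg2, the closest pair, shared 78.9% of aligned bases, followed by Reg3a with Reg3b at 73.7% and Reg3b with Reg3g at 72.6%. No stretch of 50 bases was shared between any members. Reg1 shared 32 of its 876 such stretches and Reg2 39 of 899 with genes outside the family, so a small part of their reads may be uncertain. The sources used here do not give the strand setting, so reads from overlapping antisense transcripts cannot be told apart.

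Reg1 was the most abundant member in every library and held between 71.1% and 88.5% of all REG counts. Per kilobase of exon, Reg1 measured 1326 ± 1209 CPM per kb in the TG libraries and 585 ± 425 CPM per kb in the WT libraries (SD, n = 4 each). Reg2 followed at 151 ± 48.8 in TG and 62.3 ± 45.0 CPM per kb in WT libraries, and Reg3b at 86.8 ± 50.8 in TG and 24.6 ± 16.7 CPM per kb in WT libraries. The ranges of Reg2 and Reg3b overlapped within each group. Reg3a and Reg3d overlapped too, with 23.8 ± 8.70 and 19.2 ± 15.5 CPM per kb in TG libraries and 7.55 ± 4.21 and 7.83 ± 5.71 CPM per kb in WT libraries. Reg3g and Reg4 stood far below, at 0.658 ± 0.470 and 0.167 ± 0.140 CPM per kb in TG libraries. The pair measured 0.510 ± 0.0700 and 0.114 ± 0.0936 CPM per kb in WT libraries. The 7 members together took 0.326%, 0.128%, 0.0684% and 0.0817% of gene counts in TG replicates 1 to 4. In WT replicates 1 to 4 they took 0.0916%, 0.0432%, 0.0959% and 0.00890%, with a 95% Wilson interval of 0.00845% to 0.00936% for the last. TG replicate 1 was the highest library and WT replicate 4 the lowest, and the other 6 libraries overlapped.

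No REG gene passed the test between the groups, in either direction. Of the 6 members tested, 0 were called by edgeR's quasi-likelihood test at an adjusted p under 0.05, where 20.1% of 20509 tested genes were called, 12.1% higher and 8.06% lower. One member, Reg3a, had an unadjusted p under 0.05 in that test, DESeq2 called 1, again Reg3a, where it called 23.7% of genes, and limma-voom called 0. All 7 members nevertheless averaged more in the TG libraries, Reg4 on 0 to 7 reads per library. They are not separate observations, since Reg1, Reg2, Reg3a, Reg3b and Reg3d varied together over the libraries. The 32 acinar markers tested, described below, also all had positive log2 fold changes. The median log2 fold change of the 6 tested members was 1.28, beside −0.002 over all tested genes.

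Reg1 (ENSMUSG00000059654), the pancreatic stone protein, measured 2814, 904, 461 and 616 CPM in TG replicates 1 to 4, against 852, 339, 844 and 79.5 CPM in WT replicates 1 to 4. TG replicate 1 stood above and WT replicate 4 below all others, and the other libraries of the 2 groups were interleaved. The means were 1199 ± 1092 CPM in TG and 529 ± 384 CPM in WT libraries (SD, n = 4 each). The fold change was 2.27 with a 95% interval of 0.486 to 10.6, a log2 fold change of 1.18 (SE 0.92, adjusted p = 0.452, edgeR quasi-likelihood). Without TG replicate 1 the fold change was 1.26 (log2 0.33).

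Reg3d (ENSMUSG00000068341), the mouse relative of the hamster islet neogenesis-associated protein, measured 32.7, 13.2, 7.55 and 6.67 CPM in TG replicates 1 to 4, against 10.4, 4.47, 8.98 and 0.611 CPM in WT replicates 1 to 4. The order of the libraries was close to that of Reg1, with the same highest and lowest library and overlapping groups. The difference of 1.28 on the log2 scale had an SE of 0.85 and an adjusted p of 0.374 in edgeR's quasi-likelihood test, and without TG replicate 1 it was 0.58.

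Reg2 (ENSMUSG00000023140), a close relative of Reg1 that mouse beta cells can also make, measured 162, 201, 101 and 112 CPM in TG replicates 1 to 4, against 73.3, 51.6, 107 and 5.01 CPM in WT replicates 1 to 4. Only WT replicate 3 reached the range of the TG libraries. It differed by 1.28 on the log2 scale (SE 0.78, adjusted p = 0.332, edgeR quasi-likelihood), a 2.42-fold difference with a 95% interval of 0.653 to 8.98.

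Reg3b (ENSMUSG00000071356), the pancreatitis-associated protein, measured 170.1, 123, 56.9 and 46.9 CPM in TG replicates 1 to 4, against 48.4, 32.5, 29.1 and 2.44 CPM in WT replicates 1 to 4. The groups overlapped by 1 library on each side, TG replicate 4 lying just under WT replicate 1. Its log2 fold change of 1.81 (SE 0.83, adjusted p = 0.198, edgeR quasi-likelihood) was the highest in the family.

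Reg3a (ENSMUSG00000079516), a further lectin of the Reg3 branch, measured 24.6, 26.7, 11.7 and 15.5 CPM in TG replicates 1 to 4, against 7.83, 8.29, 7.78 and 1.04 CPM in WT replicates 1 to 4. It was the only member whose groups did not overlap, where 22.6% of tested genes had groups that did not overlap and 12.6% had all TG libraries above all WT libraries. The fold change was 3.11 with a 95% interval of 1.21 to 7.96 (log2 1.64, SE 0.57, unadjusted p = 0.0248, adjusted p = 0.096, edgeR quasi-likelihood). DESeq2 gave the same direction with an adjusted p of 0.0354 (log2 1.65). Without WT replicate 4, the library with the lowest value, the log2 fold change was 1.29 and edgeR's adjusted p was 0.00521, where 15.8% of genes were called and 9.22% were called higher. Without TG replicate 1 the unadjusted p was 0.0585 (adjusted p = 0.207) and the interval was 0.948 to 8.62, and without TG replicate 2 the unadjusted p was 0.0594 (adjusted p = 0.196) and the interval 0.947 to 7.85, so that both intervals held 1.

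Reg3g (ENSMUSG00000030017), the gut antimicrobial lectin, measured 1.35, 2.76, 1.06 and 0.399 CPM in TG replicates 1 to 4, against 1.06, 1.15, 0.880 and 1.22 CPM in WT replicates 1 to 4. These levels rest on 7 to 62 reads in TG and 19 to 25 reads in WT libraries, and the groups overlapped. It differed by 0.38 on the log2 scale (SE 0.49, adjusted p = 0.659, edgeR quasi-likelihood), and without TG replicate 2 it was −0.20. Reg4 (ENSMUSG00000027876), a member known from intestinal enteroendocrine and goblet cells, had 2, 6, 7 and 0 reads in TG and 2, 5, 3 and 0 reads in WT replicates 1 to 4. It missed the filter on low counts. The counts of 0 allow up to 0.171 CPM in TG replicate 4 and 0.183 CPM in WT replicate 4.

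**Figure D1:**
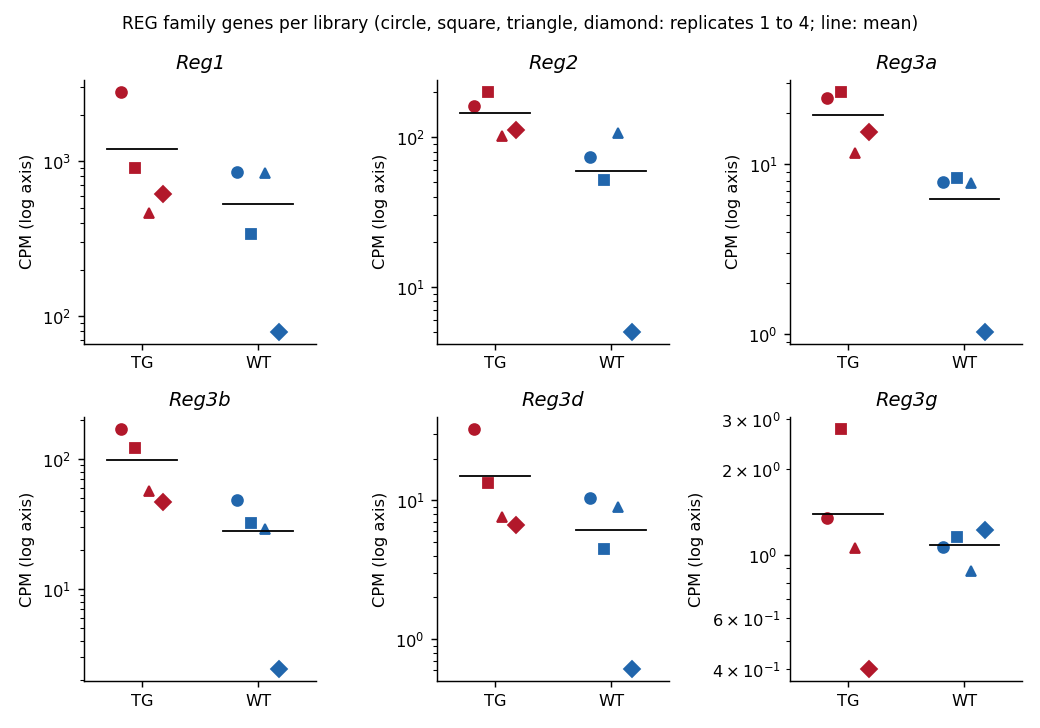
CPM of the 6 tested REG genes in each library on a log axis, TG left of WT, with 1 point per library and a line at the group mean. Reg3a is the only gene whose groups do not overlap, and WT replicate 4 is the lowest library for 5 members.

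Acinar marker transcripts varied with the REG genes. The 34 listed acinar markers, pancreatic enzymes and the acinar transcription factors, summed to 60680, 19405, 9880 and 14248 CPM in TG replicates 1 to 4, against 18489, 8956, 18865 and 2021 CPM in WT replicates 1 to 4. This is 1.06% to 6.18% of gene counts in TG and 0.200% to 1.81% in WT libraries, a 30.8-fold range over the 8 libraries. Of 32 markers tested, 3 were higher and 0 lower at an adjusted p under 0.05 (edgeR quasi-likelihood), with a median log2 fold change of 1.08. The share called over all tested genes was 12.1% higher and 8.06% lower. The acinar nuclear receptor Nr5a2 rose to 12.2 ± 4.07 CPM in TG libraries, against 3.90 ± 1.90 CPM in WT libraries (log2 1.63, SE 0.33, adjusted p = 0.00393). Gatm, an enzyme of creatine synthesis, was also higher (log2 0.54, SE 0.12, adjusted p = 0.00427). Among WT libraries Gatm was highest in replicate 4, at 36.5 CPM, where the acinar sum was lowest. Nr5a2 measured 11.6 CPM in TG replicate 3, with an acinar sum of 9880 CPM. It measured 6.57 CPM in WT replicate 3, with a sum of 18865 CPM. Nr5a2 was highest in TG replicate 1, at 17.7 CPM, and lowest in WT replicate 4, at 2.08 CPM. Those libraries also had the highest and the lowest acinar sum. What part the acinar level had in the calls of Nr5a2 and Gatm was not tested. The trypsinogen gene Prss1 was higher (log2 2.11, adjusted p = 0.0343), but without TG replicate 1 its log2 fold change was 0.88 with an adjusted p of 0.31. The acinar factor Ptf1a had no reads in TG replicate 4 and in all 4 WT libraries.

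Reg1 kept an almost fixed ratio to the acinar markers. For every 1000 acinar marker counts there were 46.4, 46.6, 46.7 and 43.2 Reg1 counts in TG replicates 1 to 4, against 46.1, 37.8, 44.8 and 39.3 in WT replicates 1 to 4. The highest ratio was 1.23 times the lowest, although the Reg1 level itself ranged 35.4-fold. Reg3d was less even, at 0.468 to 0.764 counts per 1000 in TG and 0.302 to 0.564 in WT libraries, a 2.53-fold range. Its lowest ratio, in WT replicate 4, rests on 10 reads.

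Reg2, Reg3a and Reg3b varied more, with ranges of 4.18-fold, 3.40-fold and 5.23-fold in the ratio. Reg2 stood at 2.67, 10.4, 10.2 and 7.85 counts per 1000 acinar counts in TG replicates 1 to 4, against 3.96, 5.76, 5.68 and 2.48 in WT replicates 1 to 4. Reg3a stood at 0.405, 1.37, 1.18 and 1.09 in TG replicates 1 to 4, against 0.423, 0.926, 0.412 and 0.514 in WT replicates 1 to 4. For both genes TG replicates 2, 3 and 4 lay above all WT libraries, while TG replicate 1, the library richest in acinar transcripts, lay among or below them. Reg3b had 2.80, 6.32, 5.76 and 3.29 in TG, against 2.62, 3.63, 1.54 and 1.21 in WT replicates 1 to 4. The means of Reg3b were 4.55 ± 1.75 in TG and 2.25 ± 1.10 in WT libraries (SD, n = 4 each), and the ranges overlapped. Reg3g followed no acinar ratio, with 0.0222 to 0.142 in TG and 0.0466 to 0.605 in WT libraries.

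**Figure D2:**
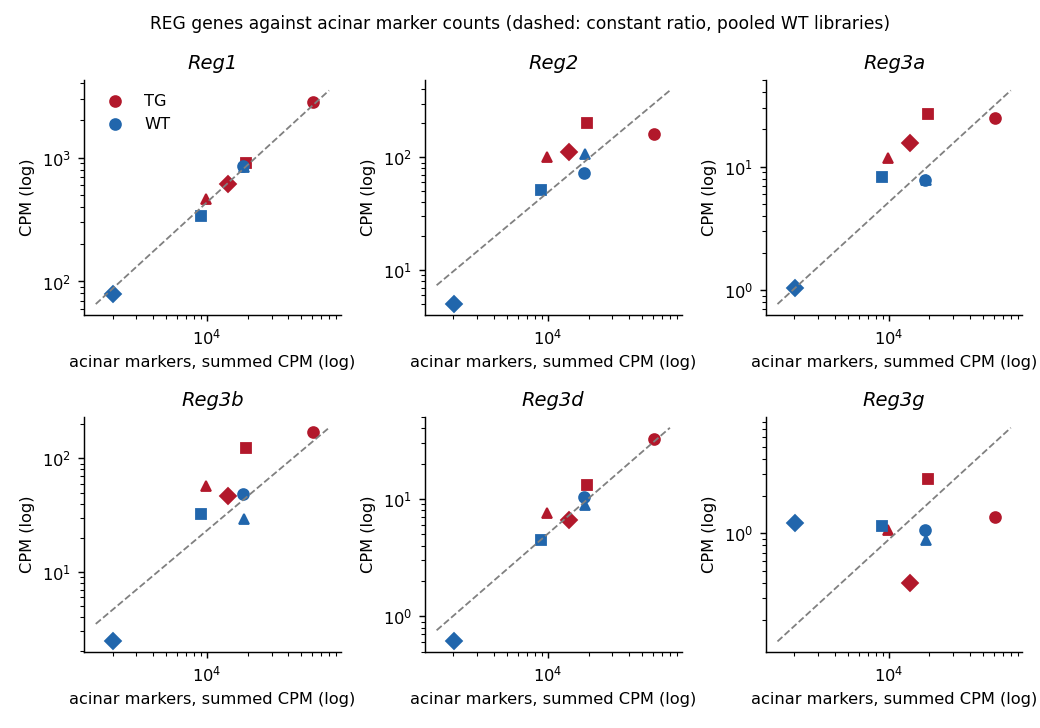
CPM of 6 REG genes against the summed CPM of the acinar markers, both on log axes, with 1 symbol per library (circle, square, triangle and diamond for replicates 1 to 4; red TG, blue WT) and a dashed line of constant ratio from the pooled WT libraries. Reg1 and Reg3d lie close to the line, and Reg2, Reg3a and Reg3b lie above it in TG replicates 2 to 4.

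**Figure D3:**
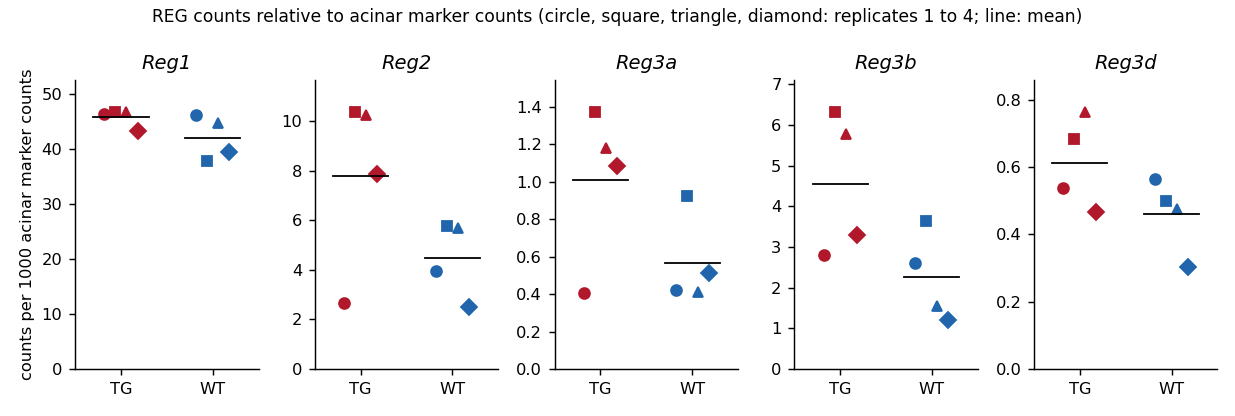
REG counts per 1000 acinar marker counts in each library, TG left of WT. Reg1 stays between 37.8 and 46.7 in all 8 libraries, whereas Reg2 and Reg3a are highest in TG replicates 2 to 4.

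The make-up of the REG transcripts differed accordingly. Reg1 made up 87.8%, 71.1%, 72.1% and 77.3% of REG counts in TG replicates 1 to 4, against 85.8%, 77.5%, 84.6% and 88.5% in WT replicates 1 to 4. Reg2 made up 5.05% in TG replicate 1 and up to 15.8% in the other TG libraries, against 7.38%, 11.8%, 10.7% and 5.58% in WT replicates 1 to 4. TG replicates 2 to 4 thus held more Reg2 and less Reg1 within the family than any WT library, while TG replicate 1 lay within the WT range for Reg1 and just below it for Reg2.

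The group difference was also fitted with the log2 of the summed acinar markers as a covariate in edgeR, a setting chosen after the data had been seen. It called 15.4% of all genes. Reg1 then differed by a log2 fold change of 0.07 (SE 0.093), a 1.05-fold difference with a 95% interval of 0.916 to 1.21. The corresponding value for Reg3d was 0.31 (SE 0.21), with an interval of 0.907-fold to 1.69-fold.

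Reg3a differed 2.17-fold in the same fit, with an interval of 1.29 to 3.65 (log2 1.12, SE 0.34, adjusted p = 0.0495, edgeR quasi-likelihood). Reg2 had a log2 fold change of 0.82 (SE 0.53, adjusted p = 0.411) and Reg3b of 1.02 (SE 0.48, adjusted p = 0.255). With the mean log2 CPM of the markers as the covariate instead of their sum, Reg3a had a log2 fold change of 1.07 and an adjusted p of 0.085. The call of Reg3a in the fit with the sum therefore depended on how the acinar level was summarised.

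Leaving out TG replicate 1 and WT replicate 4, the libraries with the highest and the lowest acinar level, gave Reg3a a log2 fold change of 1.15 (SE 0.26, adjusted p = 0.0118, edgeR quasi-likelihood, 13.0% of genes called). Reg1 then had a log2 fold change of −0.06 and Reg2 of 0.82 (adjusted p = 0.282). With the acinar sum as covariate in these 6 libraries, which called 11.6% of genes, Reg2 had a log2 fold change of 0.86 (SE 0.15, adjusted p = 0.0035) and Reg3a of 1.12 (SE 0.25, adjusted p = 0.0108). Reg3b missed the threshold there (adjusted p = 0.238). These libraries were left out after their values had been seen. TG replicate 1 was the TG library with the lowest ratios of Reg2 and Reg3a to acinar counts, at 2.67 and 0.405 per 1000. In edgeR's fit with the acinar sum that kept all 8 libraries, the adjusted p of Reg2 was 0.411.

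**Figure D4:**
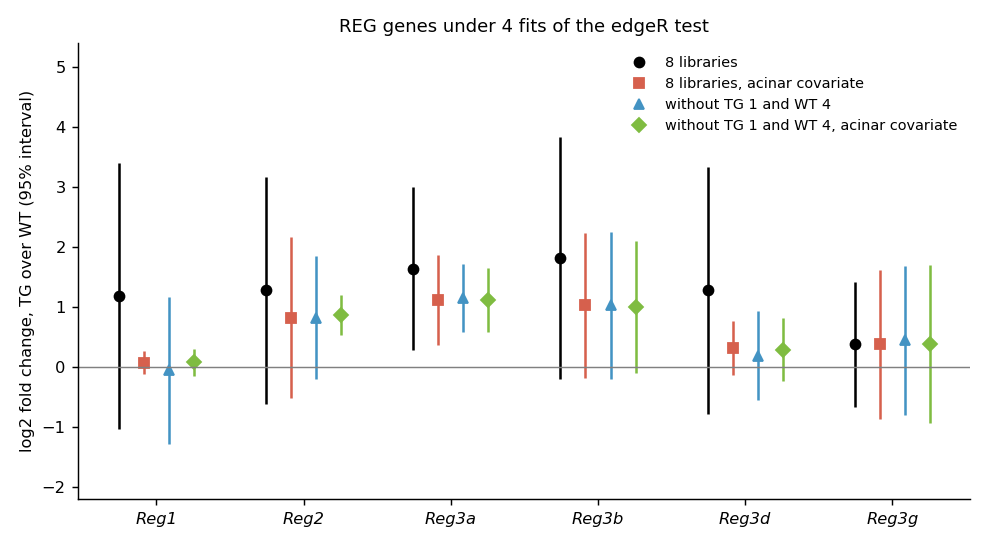
Log2 fold change of TG over WT for 6 REG genes with 95% intervals under 4 edgeR fits: all 8 libraries, the same with the acinar covariate, without TG replicate 1 and WT replicate 4, and the last with the covariate. Reg1 moves to 0.07 with the covariate, whereas Reg3a lies between 1.12 and 1.64 in the 4 fits.

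Genes linked to REG reception did not pass the test in the main fit. The list of 6, led by Extl3, a proposed receptor of REG proteins, had 0 higher and 0 lower, with a median log2 fold change of 0.16. Extl3 measured 44.9 ± 3.29 CPM in TG and 40.1 ± 5.02 CPM in WT libraries (SD, n = 4 each, log2 0.16, SE 0.11, adjusted p = 0.326, edgeR quasi-likelihood). Cd44, a cell surface adhesion receptor, measured 31.3 ± 4.15 CPM in TG and 23.9 ± 5.06 CPM in WT libraries (log2 0.39, SE 0.15, adjusted p = 0.0812). Over 22 alternative settings of edgeR, DESeq2 or limma-voom, the adjusted p of Cd44 ran from 0.0230 to 0.930. With each library left out in turn, 0 to 1 genes of the list were called higher.

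Of the cytokine genes upstream of REG, the ligands were scarce and some receptors differed. The IL-6 and IL-22 list holds 20 genes, of which 14 were tested, 3 were higher and 1 was lower, with a median log2 fold change of 0.54. Among all tested genes, 12.1% were higher and 8.06% lower. Il6 stayed at or below 0.918 CPM in TG and 0.415 CPM in WT libraries, and Il22 at or below 0.356 CPM in TG and 0.290 CPM in WT libraries, and neither was tested. The oncostatin M receptor Osmr rose to 26.6 ± 6.81 CPM in TG libraries, against 11.9 ± 2.51 CPM in WT libraries (log2 1.16, SE 0.19, adjusted p = 0.000752, edgeR quasi-likelihood). Il6st, the shared gp130 receptor chain, rose to 223 ± 33.7 CPM in TG libraries, against 143 ± 28.7 CPM in WT libraries (log2 0.64, SE 0.14, adjusted p = 0.00696).

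The LIF receptor gene Lifr fell to 153 ± 12.6 CPM in TG libraries, against 231 ± 13.3 CPM in WT libraries (log2 −0.60, SE 0.086, adjusted p = 0.000195, edgeR quasi-likelihood). Il11ra1, the IL-11 receptor chain, was higher (log2 0.79, SE 0.21, adjusted p = 0.0192), but its adjusted p was 0.0622 without WT replicate 2. Il22ra1, the receptor chain for IL-22, measured 5.61, 1.73, 0.353 and 1.99 CPM in TG replicates 1 to 4, against 0.918, 0.415, 0.972 and 0.489 CPM in WT replicates 1 to 4. Its groups overlapped, and its log2 fold change of 1.77 had an SE of 0.65 and an adjusted p of 0.0774. Over 21 alternative settings of edgeR, DESeq2 or limma-voom, the adjusted p of Il22ra1 ran from 0.00232 to 0.997.

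Of the 16 JAK and STAT3 transducers and inhibitors, 1 was higher and 2 were lower, with a median log2 fold change of −0.15. Over all tested genes, 12.1% were called higher and 8.06% lower. Stat3 measured 120.3 ± 7.94 CPM in TG and 123 ± 14.5 CPM in WT libraries (log2 −0.03, SE 0.094, adjusted p = 0.875, edgeR quasi-likelihood). Socs3, the feedback inhibitor that STAT3 induces, was higher (log2 0.61, SE 0.16, adjusted p = 0.016). Its adjusted p was 0.0549 once TG replicate 2 was left out, 0.0537 once WT replicate 1 was left out and 0.053 with the acinar sum as covariate. The feedback inhibitor Socs2 was lower (log2 −0.50, SE 0.16, adjusted p = 0.0392), as was the transducer Stat5b (log2 −0.34, SE 0.11, adjusted p = 0.043), but neither call was stable to leaving out a library. Socs2 lost its call in 5 of the 8 such fits (adjusted p of 0.0581 to 0.115, without TG replicate 2, 3 or 4 or WT replicate 1 or 2). Stat5b lost it in 4 of the 8 (adjusted p of 0.0604 to 0.129, without TG replicate 2 or 3 or WT replicate 1 or 3).

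Acute phase genes and other targets of STAT3 were higher or did not pass the test. Of 20 listed, 13 were tested, 7 were higher and 0 lower, with a median log2 fold change of 0.71. Log2 fold changes were positive for 10 of the 13 and ran down to −0.60, which did not pass the test. Il1rn, the IL-1 receptor antagonist, averaged 1.91 ± 0.603 CPM in TG libraries and 0.153 ± 0.177 CPM in WT libraries, of which 2 had no reads (log2 3.54, SE 0.72, adjusted p = 0.00293, edgeR quasi-likelihood). The adhesion molecule Icam1 rose to 10.4 ± 2.17 CPM in TG libraries, against 2.47 ± 1.13 CPM in WT libraries (log2 2.07, SE 0.28, adjusted p = 0.000132). Serpina3n, a secreted protease inhibitor, and Pim3, a kinase, were higher as well (log2 1.70 and 0.57).

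Genes listed for acinar injury and metaplasia, the change of acinar cells toward a duct-like state, were mostly higher. Bulk RNA does not show which cells made these transcripts. Of 17 listed, 15 were tested, 11 were higher and 0 lower, with a median log2 fold change of 1.54. Nupr1, a stress gene first described in pancreatitis and known as a target of ATF4, rose to 813 ± 88.7 CPM in TG libraries, against 76.9 ± 25.9 CPM in WT libraries (log2 3.40, SE 0.26, adjusted p = 6.79e-05, edgeR quasi-likelihood). Anxa3, a calcium-dependent membrane-binding protein, rose to 66.7 ± 11.2 CPM in TG libraries, against 21.4 ± 5.07 CPM in WT libraries (log2 1.64, SE 0.17, adjusted p = 3.33e-05). The adhesion molecule Vcam1 (log2 1.59) and the surface protein Cd24a (log2 0.91) were higher too. This list summed to 1959 to 2749 CPM in TG and 630 to 1027 CPM in WT libraries, with no overlap, whereas the summed acinar enzymes overlapped.

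Markers of several other cell types differed between the groups, and their part in the REG levels was not tested. The list counts below stand beside 12.1% of all tested genes called higher and 8.06% called lower. Duct markers were higher for 9 of 15 genes, among them Spp1, a secreted phosphoprotein, at 501 ± 126 CPM in TG and 77.2 ± 21.5 CPM in WT libraries. Leaving out WT replicate 2 left 4 duct markers called, leaving out WT replicate 1 left 5, and leaving out TG replicate 1 or TG replicate 3 left 6. The stellate, fibroblast and mural list had 6 of 10 higher, but 10 when WT replicate 3 was left out, 4 when TG replicate 2 was left out and 3 when WT replicate 1 was left out. It summed to 3359 to 6527 CPM in TG and 841 to 2813 CPM in WT libraries.

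Endothelial markers were higher for 9 of 10 genes, with sums of 1282 to 1360 CPM in TG and 570 to 957 CPM in WT libraries. Macrophage markers were higher for 8 of 12 and summed to 193 to 492 CPM in TG and 107 to 177 CPM in WT libraries. Lymphocyte and neutrophil markers were higher for 4 of 9 tested, and for 2 without TG replicate 1, TG replicate 2, WT replicate 2 or WT replicate 4. Beta cell markers were lower for all 11 tested, and their sums were 50225 to 64350 CPM in TG and 103354 to 123989 CPM in WT libraries. Alpha, delta and PP cell markers, with 1 of 11 higher, had sums that overlapped. Of 7 tested genes of intestinal and goblet cells, where Reg4 is known, 0 were higher and 1 was lower. The lower gene was Chga, which encodes the granule protein chromogranin A that islet endocrine cells also make, at 10059 ± 2142 CPM in TG and 17606 ± 2562 CPM in WT libraries (log2 −0.81). When the average log2 CPM of the endothelial and stromal lists served as a covariate, 361 genes were called in place of 4129, and 0 members passed the test. This covariate ran from 6.90 to 7.25 in TG and from 5.24 to 6.49 in WT libraries, so that it did not overlap and cannot be told apart from the group. Log2 fold changes in that fit were −1.44 (SE 1.98) for Reg1, −0.25 (SE 1.50) for Reg2 and −0.88 (SE 1.85) for Reg3d. They were 1.08 (SE 1.32) for Reg3a, 0.96 (SE 2.08) for Reg3b and 0.99 (SE 1.07) for Reg3g, and with these errors the fit gives no direction for any member.

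**Figure D5:**
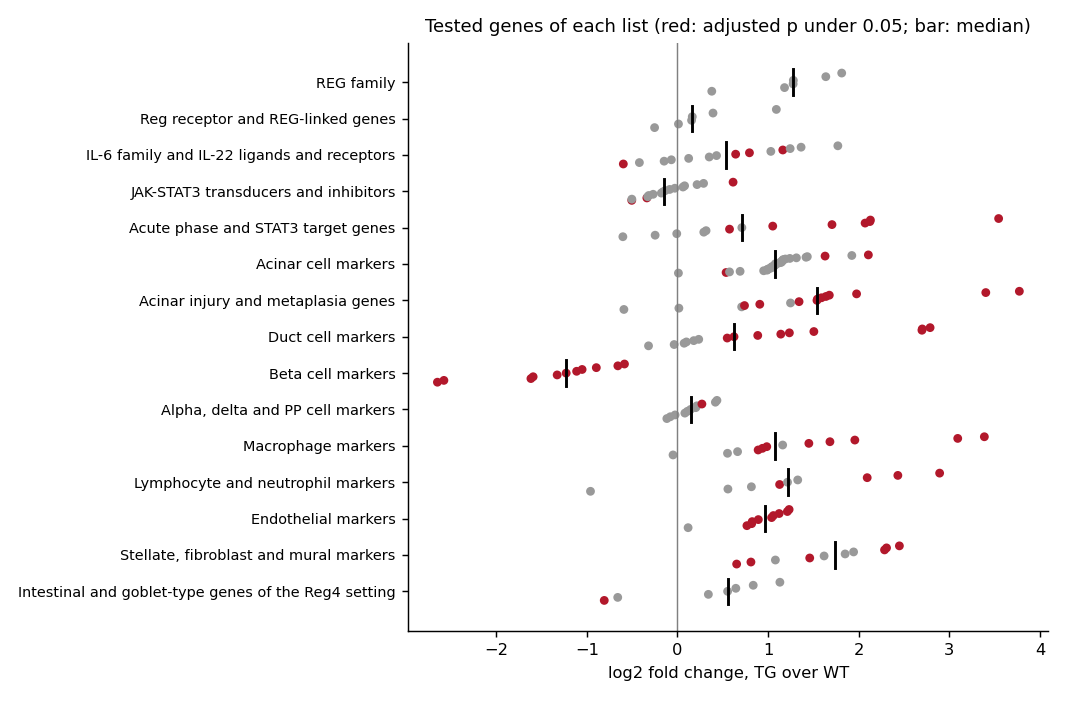
Log2 fold change of TG over WT for each tested gene of the REG family and 14 gene lists, red where the adjusted p is under 0.05, with a bar at the median. The 6 REG genes are all above 0 and none is red, 11 of 15 genes of the acinar injury list are red, and the 11 beta cell markers are all red and below 0.

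The log2 CPM of Reg1, Reg2, Reg3a, Reg3b and Reg3d varied together over the 8 libraries, given as Pearson's r for description, since the genes share each library's depth and acinar level. The pairs ran from r = 0.862 for Reg1 with Reg3a to r = 0.986 for Reg1 with Reg3d. Between them lay Reg3a with Reg3b (0.977), Reg2 with Reg3a (0.965), Reg3b with Reg3d (0.960), Reg2 with Reg3b (0.953) and Reg2 with Reg3d (0.929). Reg3g stood apart, with r between 0.0758 and 0.205 to the others. Among 11927 other genes, those most like Reg1 were Clps, which encodes colipase, Gp2, a zymogen granule membrane protein, and Prss2, a trypsinogen, each at r = 0.999. The genes most like Reg3d were 2210010C04Rik, Dmbt1 and the trypsin inhibitor gene Spink1, at r of 0.992 to 0.994. For Reg2 they were Card19, Col26a1 and Fos (r of 0.962 to 0.978), for Reg3a Sirt2, Ccdc39 and Wdr91 (r of 0.983 to 0.988) and for Reg3b Sirt2, Ralb and Tbca (r of 0.969 to 0.981). No acinar enzyme was among the 3 nearest genes of Reg2, Reg3a or Reg3b. WT replicate 4 was the lowest library for these REG genes and for all of their nearest genes named here. That library therefore weighs heavily on each r. Sirt2 ran only from 40.8 CPM in WT replicate 4 to 56.6 CPM in TG replicate 1. Reg3a, by contrast, ranged 25.7-fold, with 17 reads in WT replicate 4. The ranking thus does not separate these members from the acinar level, which was also lowest in WT replicate 4.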

How the data were processed

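RNA of 8 islet libraries was sequenced, and the authors deposited whole-number read counts per Ensembl gene, not normalized. The submitters' processing notes name STAR 2.7.10a, HTSeq 0.11.3 and the build mm39, without a strand setting. Of each table's reads, 25.3% to 31.5% lay outside genes and 3.74% to 4.36% were ambiguous, and these stayed out of library sizes and tests. Symbols matched 52081 of 55414 rows. The filter filterByExpr (minimum count 10) kept 20509 genes. Groups were compared with the edgeR 4.0.16 quasi-likelihood test (robust, two-sided, TMM, R 4.3.3), the group being the single term. P-values were adjusted over all tested genes by the Benjamini-Hochberg method, and an adjusted p under 0.05 made a call.

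The members, the 14 gene lists with 207 entries and the settings were chosen with earlier results of these data known. Named genes are the members, the 3 genes most like each, from each list the 4 genes of lowest adjusted p, and Extl3, Stat3, Socs3, Il6st and Il22ra1. The 2 further motifs and the fits with the summed acinar covariate or with 2 libraries left out were added after the data had been seen. Alternatives were DESeq2 1.42.0, limma-voom from limma 3.58.1, other scalings, filters and covariates, the replicate number as a block and each library left out.

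A count of 0 allows 3 counts, 0.132 to 0.183 CPM. Shares have 95% Wilson intervals. These and the limit cover no more than counting error. Promoters are from RefSeq GRCm38.p6 and transcripts from GENCODE M21 of the same build, while the authors counted on mm39, and identity was computed on transcripts with Biopython 1.88. The edgeR step was tested on simulated counts for TG against WT over 20509 genes, 5 times with 200 changed genes each. For changes of 1.5-fold, 2-fold and 4-fold it found 20.6%, 48.9% and 79.6% of the changed genes, with 29 false calls among 523 (5.54%). These rates are averages over all genes, and the real contrast called a larger share, 20.1%. The tested members had log2 SEs of 0.49 to 0.92. The rates therefore do not give the power for the members.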

Additional observations from a re-analysis of the deposited data

Results flagged for a closer look

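A library stood far from the other 3 of its group, by the gap to its nearest neighbour relative to the group's range, in 7 of 58 groups of values checked, where chance gives about 1 in 20. Reg3a measured 1.04 CPM in WT replicate 4, on 17 reads, with 7.78 to 8.29 CPM in the other WT libraries. Reg1 per 1000 acinar counts was 43.2 in TG replicate 4, with 46.4 to 46.7 in the other TG libraries. Reg3g per 1000 acinar counts was 0.605 in WT replicate 4, the library with the fewest acinar counts, with 0.0466 to 0.129 in the other WT libraries. The summed IL-6 and IL-22 ligands and receptors reached 676 CPM in TG replicate 1, with 632 to 638 CPM in the other TG libraries, and 651 CPM in WT replicate 3, with 572 to 582 CPM in the other WT libraries. Beta cell markers summed to 64350 CPM in TG replicate 2, with 50225 to 52212 CPM in the other TG libraries. Endothelial markers summed to 957 CPM in WT replicate 3, with 570 to 632 CPM in the other WT libraries.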

How the results depend on the processing

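With the vascular and stromal covariate, 361 genes were called (139 higher, 222 lower), 11 list genes were called in place of 77, and the log2 fold changes of Reg1 (−1.44), Reg2 (−0.25), Reg3d (−0.88), Cd44 (−0.12), Extl3 (−0.19), Il6st (−0.066), Il11ra1 (−0.20) and Il22ra1 (−0.036) turned below 0. Reg1 was also below 0 with the mean acinar covariate (−0.049) and without TG replicate 1 and WT replicate 4 (−0.056). That last setting called 2646 genes (1509 higher). With the acinar sum added it called 2357 (1420 higher, 937 lower), and the sum without TG replicate 1 alone called 1092 lower. Members called higher, 0 in the fit reported first, were 1 with DESeq2, 1 with the acinar sum and 1 without both libraries, each time Reg3a (log2 1.65, 1.12 and 1.15). They were 2, Reg2 and Reg3a, with the sum and TG replicate 1 out (0.96 and 1.17, where 14.2% of genes were called) or both libraries out (0.86 and 1.12, where 11.6% were called). The cause of these shifts was not tested, and TG replicate 1 was the TG library with the lowest Reg2 and Reg3a ratios to acinar counts. With each library left out in turn, 0 to 1 members (Reg3a without WT replicate 4) and 2864 to 4404 genes were called (1691 to 2622 higher, 1122 to 2131 lower), with 61 to 79 list genes. Log2 fold changes then ran from 0.33 to 1.50 for Reg1, 0.89 to 1.72 for Reg2, 1.29 to 1.79 for Reg3a, 1.42 to 2.19 for Reg3b, 0.58 to 1.64 for Reg3d, −0.20 to 0.64 for Reg3g and −0.10 to 0.042 for Stat3. Reg1 was lowest without TG replicate 1. No pairing by replicate number was seen, since same-numbered libraries correlated at −0.03 to 0.08 and not every library was closest to its own number. A check on so few libraries cannot exclude a pairing. With the replicate number as a block, 4673 genes and 0 members were called (Reg3a log2 1.75, adjusted p = 0.0784, edgeR). Depth limits Reg3g and Reg4, which rest on few reads. It also limits Reg3a and Reg3d in WT replicate 4, where they had 17 and 10 reads.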
